A study of Rattus norvegicus with 19 samples.

Results

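The genes described here lie just outside the engineered interval of rat chromosome 1, on its *Sult1a1* side. Their levels address whether a deletion or duplication goes with altered expression of neighbours whose own copy number is unchanged, a position effect. They were chosen by symbol as *Sh2b1*, *Atxn2l*, *Tufm*, *Eif3c*, *Cln3*, *Sgf29*, *Rabep2*, *Spns1*, *Nfatc2ip* and *Atp2a1*, 10 genes of the 32623 in the deposited tables. Of these, 9 were found by symbol and all 9 passed the filter on low counts, among 15440 genes tested. *Atp2a1* was not analysed here.

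Hippocampi of male Sprague Dawley rats, an outbred stock, were analysed by RNA-seq, 1 library per animal. The groups were 6 wt libraries with 2 copies of the *Sult1a1* to *Spn* interval, 4 Del/+ with 1 copy, 5 Dup/+ with 3 copies, and 4 Del/Dup with a deleted and a duplicated chromosome and therefore 2 copies. The carriers were constitutive, heterozygous for chromosomes made by CRISPR/Cas9 cutting at both ends of the interval, and wt rats were littermates. The animals were adult, and their exact age at sampling was not given in the sources used here. A rearranged chromosome is inherited together with the sequence beside it, so that, in an outbred stock, a position effect and a linked variant in the flank cannot be told apart in these groups. In bulk tissue, fewer cells of a type and less RNA per cell cannot be told apart either.

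The flanking genes have unrelated functions. *Sh2b1* encodes an adaptor of the leptin and insulin receptors, *Eif3c* a core subunit of the translation initiation factor eIF3, *Tufm* the mitochondrial elongation factor Tu, and *Atxn2l* a relative of ataxin-2 found in stress granules. *Cln3* and *Spns1* encode lysosomal membrane proteins, *Rabep2* an effector of the endosomal GTPase Rab5, *Nfatc2ip* a partner of NFAT transcription factors, and *Atp2a1* a calcium pump of fast muscle. *Sgf29* encodes the subunit of the histone acetyltransferase complex SAGA that reads methylated histone H3. In the RefSeq gene order of GRCr8, counted outward from the interval over tested genes, *Sgf29* was number 1, *Cln3* 3, *Eif3c* 4, *Atxn2l* 5, *Tufm* 6, *Sh2b1* 7, *Rabep2* 8, *Nfatc2ip* 9 and *Spns1* 10. *Sgf29* lies on the plus strand and *Sult1a1*, the first interval gene, on the minus strand, so that their 3′ ends face each other across the border.

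The guide targets used to cut the interval are shown first because they set where the flank begins. Both are given as the study's supplementary methods print them, and no genome was used here to place them.
cr595: gcaatctcacgtgtctgatgg
cr598: gtgacatcgtgaccctgctgg

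The start-site regions of *Sgf29* and *Eif3c* are shown next, since these are the flanking genes that passed by edgeR in a comparison with wt. RefSeq regions of GRCr8, 300 bases around the annotated start, were matched for all 10 genes. The *Sgf29* region is chr1:190668778-190669077 (plus strand), and the *Eif3c* region is chr1:190583018-190583317 (minus strand). Capitals mark matches, on either strand, to the GC box (GGGCGG), the CCAAT box, the core of ETS factor sites (TTCCGG) or the TATA box (TATAAA).
Sgf29: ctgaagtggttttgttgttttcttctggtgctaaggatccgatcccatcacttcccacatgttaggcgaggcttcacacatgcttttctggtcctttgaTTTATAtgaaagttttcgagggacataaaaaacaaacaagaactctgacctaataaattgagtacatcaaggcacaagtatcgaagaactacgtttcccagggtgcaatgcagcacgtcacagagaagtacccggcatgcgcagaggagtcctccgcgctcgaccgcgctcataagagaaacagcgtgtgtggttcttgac
Eif3c: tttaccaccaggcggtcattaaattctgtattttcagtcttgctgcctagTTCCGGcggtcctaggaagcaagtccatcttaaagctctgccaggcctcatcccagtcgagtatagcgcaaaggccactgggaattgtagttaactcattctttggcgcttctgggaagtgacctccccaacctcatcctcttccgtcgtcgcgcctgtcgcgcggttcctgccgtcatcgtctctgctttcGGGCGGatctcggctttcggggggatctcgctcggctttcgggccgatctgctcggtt

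The *Sgf29* region held 14 CG dinucleotides against 24 in that of *Eif3c*. TATAAA was found in the region of *Sgf29* alone among the 10 genes, and in 14.3% of 27457 rat regions of the same length. GGGCGG was found in 6 of the 10, against 34.9% of all regions, and *Sgf29* was not among them. The motif TTCCGG, found in 15.8% of all regions, was in 4 of the 10, *Eif3c* included.

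Depth ranged from 16191192 to 38760645 reads over genes per library, and the common biological coefficient of variation was 0.101. The labels gave separate animals, and the p-values measure the spread between these samples. Across the 23 tested interval genes other than *Sult1a1*, the median log2 ratio to wt lay between 0.50 and 0.57 for Dup/+, between -0.07 and 0.01 for Del/Dup, and between -1.10 and -0.92 for Del/+. The interval genes with the smallest adjusted p were *Taok2*, *Prrt2* and *Aldoa*, which fell by 0.80, 0.89 and 0.84 on the log2 scale (adjusted p of 2.6e-13, 7.64e-13 and 7.64e-13) with the averaged deleted chromosome. For wt replicate 5, the description says wt and the genotype field Dup/+, and the same ratio to the other wt libraries was -0.05, inside the wt range of -0.06 to 0.02. Multi-mapped reads, those with several alignments, made up 40.1% to 47.6% of counted lines in wt and 45.1% to 50.5% in Dup/+, but 57.8% to 70.7% in Del/Dup. In Del/+ replicates 1 to 3 this share was 63.9% to 76.3%, and in replicate 4 it was 41.6%. Every high library therefore carried the deleted chromosome.

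*Sgf29*, the tested gene next to the interval, was lower in rats with a duplicated chromosome. Its level in counts-per-million (CPM, scaled by TMM) had a lowest, median and highest value of 8.15, 9.20 and 10.0 in wt. The Dup/+ libraries, replicates 1 to 5, had 6.81, 7.20, 6.09, 6.58 and 7.16 CPM. All 5 lay under the lowest wt library, which held for 0.499% of all tested genes. In Del/+ it stood at 8.82, 7.92, 9.27 and 9.14 CPM, overlapping wt. In Del/Dup, replicates 2 to 5 had 7.29, 6.28, 6.51 and 8.31 CPM, with replicate 5 inside the wt range and the other 3 below it. The mean was 6.77 ± 0.456 CPM for Dup/+ (SD, n = 5) against 9.18 ± 0.684 for wt (SD, n = 6). It was 7.10 ± 0.916 for Del/Dup and 8.79 ± 0.608 for Del/+ (SD, n = 4 each), and 102 to 376 reads per library stood behind these values.

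Compared with wt, *Sgf29* fell by 0.44 on the log2 scale in Dup/+ (SE 0.0800, edgeR quasi-likelihood test, adjusted p = 0.0141). It was the 1 flanking gene of 9 to pass, where 0.272% of all tested genes did. This call was lost without wt replicate 1 (-0.41, adjusted p = 0.0529), without Dup/+ replicate 3 (-0.41, adjusted p = 0.0548) and without Dup/+ replicate 4 (-0.43, adjusted p = 0.0515). The Del/Dup value against wt was -0.37 (SE 0.0857, adjusted p = 0.0872), passing only in the fit without Del/Dup replicate 5 (-0.45, adjusted p = 0.0445) among the leave-one-out fits and with DESeq2 (adjusted p = 0.0201). The Del/+ value was -0.06 (SE 0.0824, adjusted p = 0.731). When the duplicated chromosome was averaged over both backgrounds, as the mean of Dup/+ minus wt and Del/Dup minus Del/+, *Sgf29* fell by 0.37 (SE 0.0613, 95% interval -0.50 to -0.25, adjusted p = 0.00376). Here too it was 1 of 9, against 0.285% of all tested genes, and it passed in each of the 19 fits that left out a library. The averaged deleted chromosome gave 0.00 (95% interval -0.13 to 0.13, adjusted p = 0.990).

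The difference in *Sgf29* was also measured within libraries of like multi-mapped share. Among the low-share libraries, Dup/+ minus wt was -0.44 (SE 0.0737, adjusted p = 0.0171). Among the high-share libraries, Del/Dup minus Del/+ was -0.28 (SE 0.121, 95% interval -0.56 to -0.01, adjusted p = 0.670). Without Del/+ replicate 4, which makes both differences in the average like for like, the averaged value was -0.36 (SE 0.0653, adjusted p = 0.0114). Counting wt replicate 5 as Dup/+ took the averaged value to -0.31 (adjusted p = 0.123) and that of Dup/+ to -0.32 (adjusted p = 0.459), and its own *Sgf29* level was 9.70 CPM. Left out, the values were -0.36 (adjusted p = 0.00881) and -0.42 (adjusted p = 0.0379).

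Of the marker lists for other cell types, that of red cells had genes that passed in Dup/+ against wt and with the averaged duplicated chromosome. The summed level of the red cell markers (6 listed, 5 in the files by symbol) counted 1 of the 2 entries of *Hba-a2*. This sum was 86.0 to 123 CPM in wt and 142 to 185 in Dup/+, but 101 to 119 in Del/Dup, inside the wt range. In Dup/+ against wt 3 of the 6 tested entries rose, with log2 values of 0.66 (adjusted p = 0.00365) and 0.56 (adjusted p = 0.0202) for the 2 entries of *Hba-a2* and 0.77 (adjusted p = 0.0380) for *Hbb*, where 0.214% of all tested genes passed and were higher. In that comparison 2 of 7 choroid plexus markers (median 2.35), 1 of 5 ependymal cilia markers (median 0.38) and 1 of 6 oligodendrocyte markers (median 0.14) had an unadjusted p under 0.05, beside 8.94% of all tested genes, and all of these markers had values above 0. With the averaged duplicated chromosome all 6 had values above 0 (median 0.39), 4 had an unadjusted p under 0.05 beside 7.83% of all tested genes, and 1 entry of *Hba-a2* passed (0.45, adjusted p = 0.0135). In the same average the 7 tested choroid plexus markers (median 1.45) and the 5 tested ependymal cilia markers (median 0.20) all had values above 0, and 0 of either list had an unadjusted p under 0.05. The summed ependymal level was 11.6 to 23.1 CPM over wt, 17.9 to 22.5 CPM over Dup/+, 16.1 to 26.3 CPM over Del/Dup and 14.02 to 28.18 CPM over Del/+. Beyond a fit with *Ttr*, a choroid plexus gene, as a covariate, the part of these markers in the *Sgf29* difference was not tested.

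**Figure D1:**
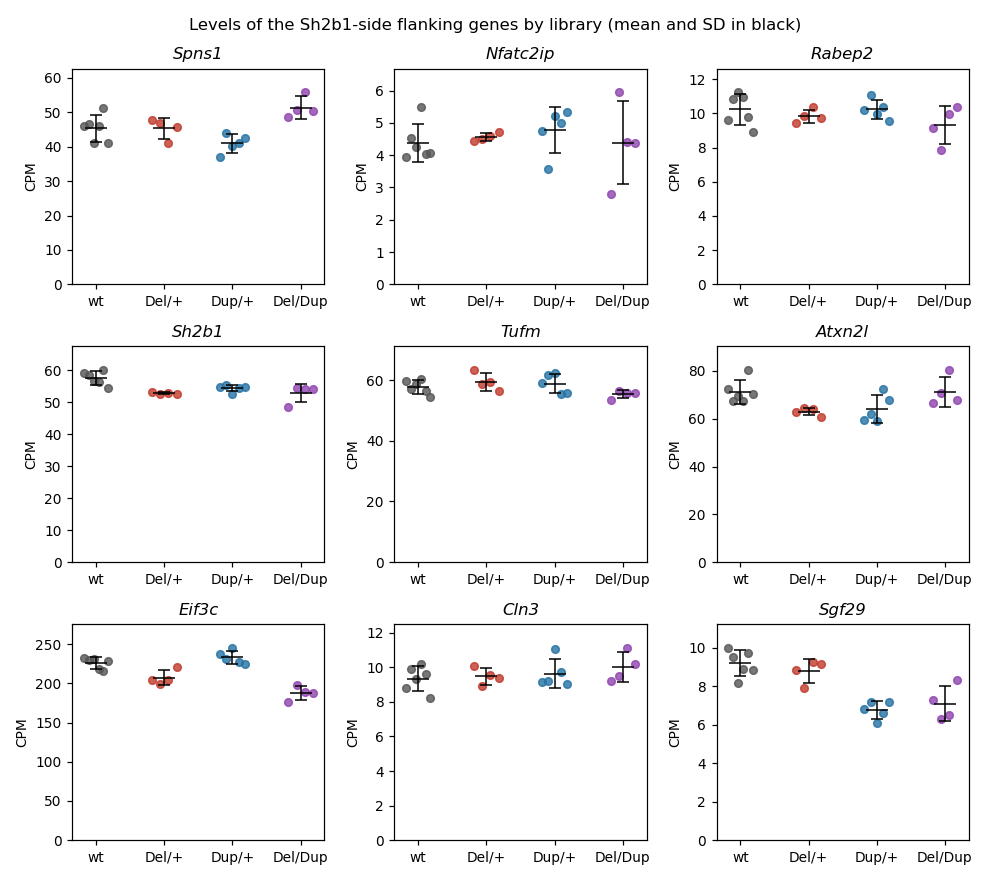
CPM of the 9 flanking genes (vertical axes, from 0) in each library of the 4 groups (horizontal axes), with points for libraries and black marks for mean and SD. The 5 Dup/+ libraries of *Sgf29* sit between 6.09 and 7.20 CPM, below every wt library, and the 4 Del/Dup libraries of *Eif3c* sit between 176 and 199 CPM, below the lowest wt library at 215.

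On the other side of the border, *Sult1a1*, a sulfotransferase gene and the first of the interval, averaged 7.32 ± 0.477 CPM over wt (SD, n = 6) and 6.84 ± 0.479 CPM over Dup/+ libraries (SD, n = 5). It had 3.31 ± 0.218 in Del/+ and 3.09 ± 0.270 in Del/Dup (SD, n = 4 each). Against wt it fell by 1.15 with Del/+ (adjusted p = 2.58e-08) and with Del/Dup by 1.25 (adjusted p = 1.12e-07), while Dup/+ gave -0.10 (95% interval -0.26 to 0.06, adjusted p = 0.736). In the same comparison of Dup/+ with wt, 20 of 24 tested interval genes rose and *Sult1a1* alone had a value below 0. With the averaged duplicated chromosome the value was -0.37 for *Sgf29*. For *Sult1a1*, which did not pass, it was -0.10 (95% interval -0.23 to 0.03, adjusted p = 0.770), beside a median of 0.73 over the 24 tested interval genes. Whether the values of the 2 genes beside this border are related was not tested.

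The other 8 flanking genes did not pass with the averaged duplicated chromosome. Their values ran from -0.05 for *Eif3c* to 0.06 for *Cln3*, and the widest 95% interval, that of *Nfatc2ip*, ran from -0.20 to 0.26. *Cln3*, the described gene nearest to the border after *Sgf29*, averaged 9.33 ± 0.718 CPM over wt (SD, n = 6), 9.63 ± 0.844 over Dup/+ (SD, n = 5) and 10.0 ± 0.865 over Del/Dup (SD, n = 4), and the groups overlapped. *Apobr*, a lipoprotein receptor gene that overlaps *Cln3* in GRCr8, had an averaged value of -0.16 (SE 0.0809, adjusted p = 0.666). The strand setting of the counting was not given in the sources used here, so reads of overlapping genes may not be separated. In GRCr8 such overlaps concern *Cln3* with *Apobr*, *Rabep2* with *Atp2a1* and *Sgf29* with *Dppa3l3*.

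*Eif3c* was lower in Del/Dup than in wt and in Dup/+, while in Del/+ it did not pass against wt by edgeR. The lowest, median and highest wt values were 215, 230 and 232 CPM. The Del/+ libraries, replicates 1 to 4, had 204, 200, 205 and 221 CPM, and the Del/Dup libraries, replicates 2 to 5, had 176, 199, 188 and 188 CPM. All 4 Del/Dup libraries lay below wt, and so did 3 of 4 Del/+ libraries. Del/+ replicate 4, the library with the low multi-mapped share, was inside the wt range. Dup/+ overlapped wt at 225 to 246 CPM.

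*Eif3c* fell by 0.27 in Del/Dup against wt (SE 0.0415, adjusted p = 0.0129), as 1 of 9 flanking genes against 0.0907% of all tested genes. Without Del/Dup replicate 2 this call was lost (-0.24, adjusted p = 0.0503), as it was without Del/Dup replicate 4 (-0.27, adjusted p = 0.0724) and with only the groups compared in the fit (-0.27, adjusted p = 0.0742). It fell by 0.31 in Del/Dup against Dup/+ (SE 0.0431, adjusted p = 0.000471). In Del/+ against wt the value was -0.12 (SE 0.0412, adjusted p = 0.124) by edgeR, while DESeq2 called *Eif3c* there. Between the deletion carriers, Del/Dup minus Del/+ was -0.15 (SE 0.0452, adjusted p = 0.315), and -0.11 (adjusted p = 0.710) among the high-share libraries. Against Dup/+, the Del/+ value was -0.17 (SE 0.0428, adjusted p = 0.0730), and it passed with DESeq2 (adjusted p = 0.0115), without Del/+ replicate 4 (adjusted p = 0.0464) and without Del/Dup replicate 2 (adjusted p = 0.0485). Averaged over both backgrounds, the deleted chromosome went with a fall of 0.22 (SE 0.0298, 95% interval -0.28 to -0.16, adjusted p = 0.000246), again 1 of 9 flanking genes but against 2.2% of all tested genes.

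The deleted chromosome and the multi-mapped share moved together in all but 1 library, Del/+ replicate 4. No other group mixed high and low shares, so a term for the share rests on that library against Del/+ replicates 1 to 3. Fits with this term cannot separate the share from the deleted chromosome beyond that 1 library. With a term for a share over 55%, the averaged value of *Eif3c* was -0.11 (SE 0.0674, 95% interval -0.25 to 0.03, adjusted p = 0.515), that of Del/Dup against wt was -0.14 (SE 0.0800, adjusted p = 0.481), that of Del/Dup against Dup/+ was -0.19 (adjusted p = 0.381) and that of Del/+ against wt was -0.03 (SE 0.0650, adjusted p = 0.871). Choroid plexus markers were raised in some of these libraries. Their summed level over 8 genes ran from 42.8 to 1261 CPM for Del/Dup and from 5.44 to 1285 CPM for Del/+, and it was 3.47 to 36.5 CPM in wt and 6.56 to 409 CPM in Dup/+, with *Otx2* at 0 in every library. *Kcnj13*, a choroid plexus potassium channel gene, rose by 2.48 with the averaged deleted chromosome (adjusted p = 0.0463). Hippocampal neuron markers, of which 7 of 8 were above 1 CPM and *Fibcd1* was at 0, summed to 2229 to 2729 CPM for Del/Dup, 2290 to 2721 CPM for Del/+, 2398 to 3163 CPM for Dup/+ and 2657 to 3254 CPM for wt. Among them *Camk2a*, a kinase gene of excitatory neurons, fell by 0.22 with the averaged deleted chromosome (adjusted p = 0.0466). Oligodendrocyte markers, 6 of 6 detected, summed to 5769 to 9205 CPM for Del/+, 5701 to 7176 CPM for Del/Dup, 5780 to 6640 CPM for Dup/+ and 5001 to 6391 CPM for wt. With the averaged deleted chromosome 0 of the 6 passed by edgeR, although 5 had an unadjusted p under 0.05, beside 22.2% of all tested genes, and all 6 had values above 0. In the same average 4 of 7 neuron markers had an unadjusted p under 0.05 with all 7 below 0, and 7 of 7 choroid plexus markers had one with all above 0. All 6 red cell entries had one as well, with values below 0, and 1 entry of *Hba-a2* passed (-0.36, adjusted p = 0.0325). Skeletal muscle markers summed to 18.4 to 30.5 CPM over all groups, and *Tnnc2*, a troponin gene, rose by 0.64 with the averaged deleted chromosome (adjusted p = 0.0433). The part of the oligodendrocyte, red cell and muscle markers was not tested. With *Ttr*, the main choroid plexus gene, as a covariate, the averaged *Eif3c* value was -0.21 (adjusted p = 0.00429), while that of Del/Dup against wt was -0.26 (adjusted p = 0.237). The part of the choroid plexus and neuron markers and of the multi-mapped share in the *Eif3c* difference cannot be told apart from the deleted chromosome beyond these fits.

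**Figure D2:**
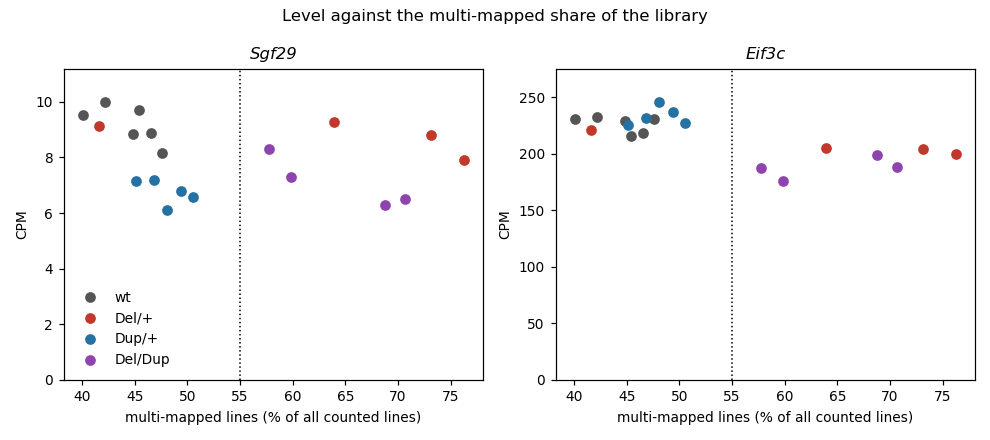
CPM of *Sgf29* (left) and *Eif3c* (right) in each library against the multi-mapped share of its counted lines in percent, with the dotted line at 55%. *Eif3c* in Del/+ replicate 4, the 1 carrier of the deletion left of the line, is at 221 CPM among wt values, while *Sgf29* is low in Dup/+ at shares close to those of wt.

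*Spns1*, a lysosomal transporter and the farthest of the described genes, was highest in Del/Dup and lowest in Dup/+. The Del/Dup libraries had 48.6, 50.7, 56.0 and 50.4 CPM and the Dup/+ libraries 36.9, 44.1, 40.1, 41.2 and 42.7 CPM, with no overlap between these groups, which held in this direction for 2.49% of all tested genes. The wt libraries, at 41.0, 46.0 and 51.4 CPM as lowest, median and highest, overlapped both. *Spns1* rose by 0.33 in Del/Dup against Dup/+ (SE 0.0676, adjusted p = 0.0413), and with *Eif3c* it made 2 of 9 flanking genes that passed, against 0.317% of all tested genes. Of 19 fits that each left out a library it passed in 10, with values of 0.29 to 0.35 and adjusted p up to 0.203. The call ended with the term for a high multi-mapped share (0.35, adjusted p = 0.335), library size alone (adjusted p = 0.0576), *Ttr* as a covariate (adjusted p = 0.0940) and wt replicate 5 as Dup/+ (0.26, adjusted p = 0.202). The *Spns1* call also ended on leaving out wt replicate 4, Del/+ replicate 2, any Dup/+ library but replicate 2, or any Del/Dup library but replicate 3. The averaged deleted chromosome gave 0.16 (SE 0.0466, adjusted p = 0.0643), which passed with DESeq2 (adjusted p = 0.0275) and without wt replicate 5, Del/Dup replicate 3 or Del/+ replicate 3 (adjusted p of 0.0325, 0.0419 and 0.0350). Against wt it had 0.18 in Del/Dup (adjusted p = 0.206) and -0.15 in Dup/+ (adjusted p = 0.496).

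*Sh2b1* and *Atxn2l* differed by little and did not pass in any of the 9 comparisons by edgeR. The Del/+ libraries of *Sh2b1* had 53.1, 52.5, 53.0 and 52.6 CPM and those of Del/Dup 48.6, 54.5, 54.1 and 54.1 CPM, all below the lowest wt value of 54.6. Dup/+ at 52.7 to 55.3 CPM overlapped wt, whose highest value was 60.2. The values against wt were -0.13 in Del/+ (SE 0.0370, adjusted p = 0.0940), -0.12 in Del/Dup (SE 0.0374, adjusted p = 0.163) and -0.08 in Dup/+ (SE 0.0349, adjusted p = 0.496). *Atxn2l* had 62.6, 64.3, 63.9 and 60.9 CPM in Del/+, below the wt range of 67.3 to 80.5, and -0.18 (SE 0.0640, adjusted p = 0.147). In Del/Dup it overlapped wt at 66.4 to 80.3 CPM and in Dup/+ at 59.0 to 72.6 CPM.

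In Del/+ against wt, *Sh2b1* and *Atxn2l* were the 2 of 9 flanking genes whose libraries all lay below wt, against 2.7% of all tested genes. In Del/Dup these were *Sh2b1* and *Eif3c*, against 1.22%. By edgeR, 0 of 9 passed in Del/+ against wt, where 0.771% of all tested genes did, 3 had an unadjusted p under 0.05 (18.4% of all), and DESeq2 called 2, *Sh2b1* and *Eif3c*, beside 6.94% of the 9241 genes to which it gave an adjusted p. The median log2 value over the 9 genes was -0.06 in Del/+, 0.00 in Dup/+ and -0.06 in Del/Dup, beside 0.00 over all tested genes in each.

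*Tufm*, *Rabep2* and *Nfatc2ip* overlapped wt in each carrier group. *Tufm* ranged over 54.3 to 60.4 CPM for wt, 53.5 to 56.3 CPM for Del/Dup, 55.3 to 62.3 CPM for Dup/+ and 56.3 to 63.4 CPM for Del/+. *Rabep2* ranged over 8.92 to 11.3 CPM for wt, 7.85 to 10.3 CPM for Del/Dup, 9.57 to 11.1 CPM for Dup/+ and 9.41 to 10.3 CPM for Del/+. *Nfatc2ip* was the least precise, at 60 to 176 reads per library, with 3.94 to 5.48 CPM in wt and 2.80 to 5.97 in Del/Dup. Against wt, the values of the 3 genes ran from -0.13 for *Rabep2* in Del/Dup to 0.12 for *Nfatc2ip* in Dup/+, with adjusted p of 0.430 or more.

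**Figure D3:**
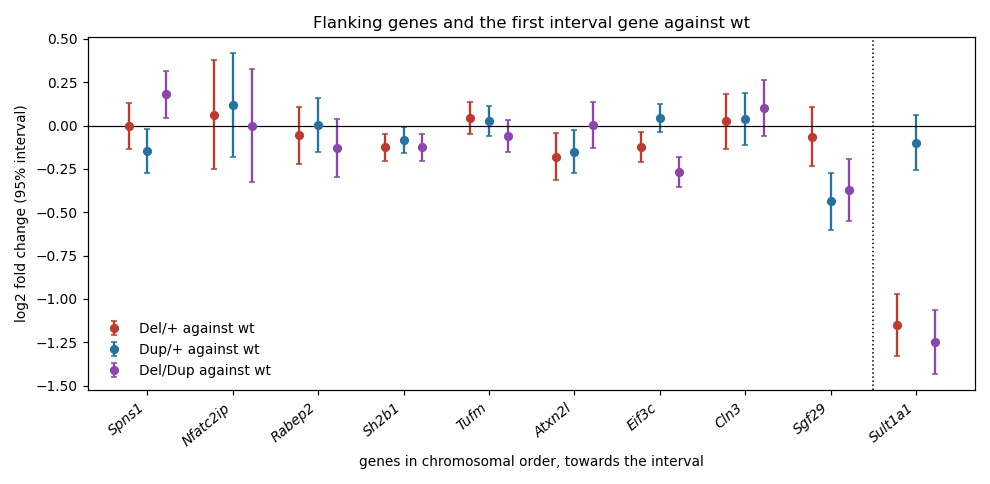
Log2 fold change against wt with its 95% interval (vertical axis) for the flanking genes in chromosomal order and *Sult1a1* right of the dotted line (horizontal axis), by carrier group. *Sgf29* is at -0.44 in Dup/+ and -0.37 in Del/Dup but -0.06 in Del/+, and *Eif3c* is at -0.27 in Del/Dup.

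The groups with rearranged chromosomes were also compared directly. In Del/+ against Dup/+, 1 against 3 copies of the interval, *Sgf29* was higher by 0.37 (SE 0.0877, adjusted p = 0.0481) as 1 of 9 flanking genes against 0.784% of all tested genes. It passed in 5 of the 19 fits that left out a library, and 14 such losses ended the call (adjusted p up to 0.149). They were the losses of any Dup/+ or Del/+ library, of wt replicate 2, 4, 5 or 6, and of Del/Dup replicate 4. The call also ended with library size alone, no filter on low counts, only the groups compared, *Ttr* as a covariate, the term for a high multi-mapped share and wt replicate 5 as Dup/+, with values of 0.27 to 0.43 and adjusted p of 0.0523 to 0.279. In this comparison all 6 red cell entries had values below 0 and an unadjusted p under 0.05 (13.5% of all), and 3 passed, both entries of *Hba-a2* (-0.72 and -0.76, adjusted p = 0.00339 and 0.00197) and *Alas2* (-0.67, adjusted p = 0.0349). Their part in the *Sgf29* difference was not tested. In Del/Dup against Del/+, DESeq2 called 0 of 9, beside 0.53% of the 13956 genes to which it gave an adjusted p. By edgeR, 0 of 9 passed there, against 0.175% of all tested genes, and 5 had an unadjusted p under 0.05 (8.48% of all). *Sgf29* had -0.31 there (SE 0.0929, adjusted p = 0.293), and in Del/Dup against Dup/+ it had 0.07 (95% interval -0.12 to 0.26, adjusted p = 0.777).

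Whether the difference with the duplicated chromosome depended on the other chromosome was tested as an interaction. DESeq2 called 0 of 9 genes, beside 0.457% of the 11599 genes to which it gave an adjusted p. By edgeR, 0 of 9 passed, against 0.0324% of all tested genes, and 3 had an unadjusted p under 0.05 (9.79% of all). For *Sgf29* the interaction was 0.13 (95% interval -0.13 to 0.39, adjusted p = 0.772), and the 3 genes were *Spns1* with 0.33 (adjusted p = 0.286), *Atxn2l* with 0.33 (adjusted p = 0.271) and *Eif3c* with -0.19 (adjusted p = 0.329).

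Among the nearest 25 tested genes on the *Sh2b1* side, *Sgf29* was the 1 that passed in Dup/+ against wt (0.272% of all tested genes) and with the averaged duplicated chromosome (0.285%). *Eif3c* was the 1 in Del/Dup against wt (0.0907%), and 0 passed in Del/+ against wt (0.771%), with 7 of 25 at an unadjusted p under 0.05, beside 18.4% of all tested genes. With the averaged deleted chromosome 3 of 25 passed and fell, against 1.21% of all tested genes. They were *Eif3c*, the nuclear export receptor gene *Xpo6* (-0.14, SE 0.0315, adjusted p = 0.0330) and the zinc finger gene *Zkscan2* (-0.24, SE 0.0595, adjusted p = 0.0449). On the *Spn* side 0 of the nearest 25 passed by edgeR in these 5 comparisons, beside 0.0907% to 2.2% of all tested genes, with 0 to 6 at an unadjusted p under 0.05. The 6 of 25 were for the averaged deleted chromosome, beside 22.2% of all tested genes, and the 0 of 25 for the averaged duplicated chromosome, beside 7.83%. Among the nearest 50, 3 passed on the *Spn* side and 1 on the *Sh2b1* side with the averaged duplicated chromosome (0.285% of all tested genes). With the averaged deleted chromosome these counts were 2 and 3 (2.2%). In Del/+ against wt they were 1 and 0 (0.771%), in Dup/+ 1 and 1 (0.272%), and in Del/Dup 0 and 1 (0.0907%). The difference between the sides was not tested.

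**Figure D4:**
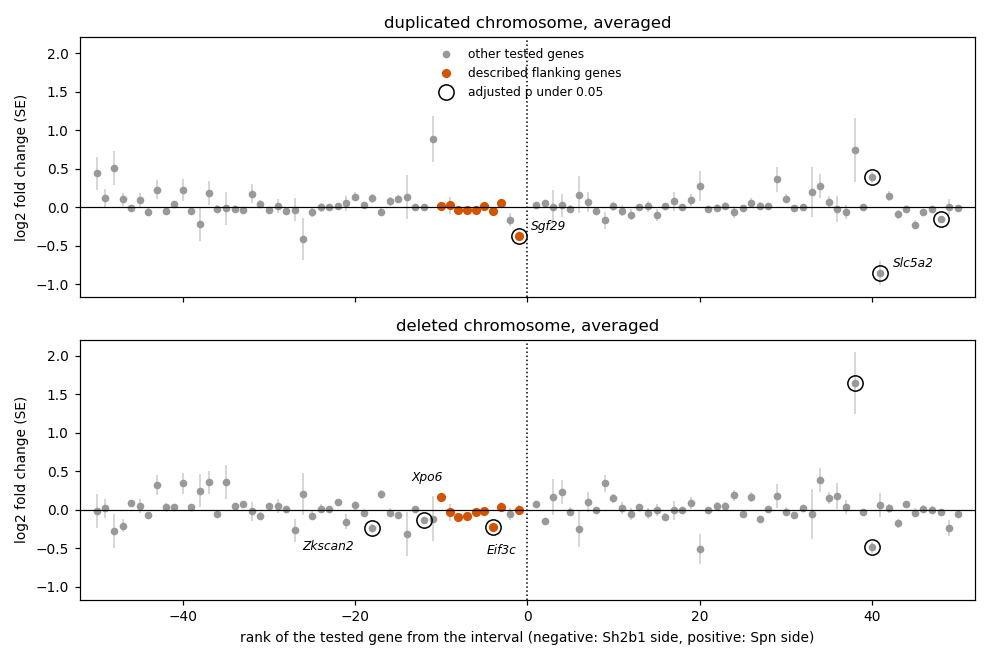
Log2 fold change with SE (vertical axes) of the nearest 50 tested genes on each side of the interval by rank (horizontal axes), for the averaged duplicated chromosome (top) and the averaged deleted chromosome (bottom). The described flanking genes are in orange and circles mark an adjusted p under 0.05, with *Sgf29* at -0.37 beside the border on top and *Eif3c* at -0.22 below. Circles on the *Spn* side mark 3 genes on top, among them *Slc5a2* at -0.86, and 2 below. *Xpo6* and *Zkscan2* are also circled below, on the *Sh2b1* side.

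Among genes of the same complexes and pathways, 1 passed in a comparison with wt or an averaged one. Of 25 tested SAGA genes other than *Sgf29*, 0 passed by edgeR in any comparison with wt, where 3 to 5 had an unadjusted p under 0.05, beside 8.94% to 18.4% of all tested genes. With the averaged duplicated chromosome 0 of these 25 passed with or without adjustment, and their values ran from -0.05 to 0.07. Of 10 other eIF3 subunit genes, 1 passed: *Eif3b*, the scaffold subunit, fell by 0.13 with the averaged deleted chromosome (SE 0.0332, adjusted p = 0.0462), where 2.2% of all tested genes passed, and 2 of the 10 had an unadjusted p under 0.05, beside 22.2%. In 7 lists for the other flanking genes, covering mitochondrial translation factors, lysosomal, leptin and insulin, stress granule, Rab5, NFAT and calcium pump genes, 0 of 70 tested genes passed by edgeR in any comparison. Unadjusted p values under 0.05 numbered 7 to 16 of the 70 by comparison, beside 7.83% to 22.2% of all tested genes.

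As a description, the genes whose log2 CPM followed *Sgf29* most closely over the 19 libraries were *Fads6* (r = 0.85), *Slc5a2* (r = 0.82) and *Inpp5k* (r = 0.78). For *Eif3c* these were *RF00100*, the 7SK small nuclear RNA (r = 0.86), *Rac1* (r = 0.84) and *Cdc42se2* (r = 0.83), and for *Spns1* they were *Ddx17* (r = 0.88), *Cdk10* (r = 0.84) and *Zfp384* (r = 0.84). These libraries share their groups and their multi-mapped shares. Between the 9 flanking genes, the 36 pairwise correlations of deviations from group means ranged from -0.37 to 0.54, with a median of 0.13.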

How the data were processed

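Hippocampal RNA of 19 rats was sequenced as 50-base single-end reads. The authors used HISAT2 against Rno6 and HTSeq on Ensembl annotation. The labels' protocol describes removal of rRNA while their molecule field names polyA RNA, and this was not settled. Each deposited file holds 1 library as raw counts per gene without normalization; the 5 summary lines were left out of library sizes and tests, and multi-mapped lines were used as a measure of each library. Groups came from the description field of the labels.

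Genes were filtered with filterByExpr, scaled by TMM and tested with edgeR 4.0.16 (quasi-likelihood F test, R 4.3.3) in a single fit of the 19 libraries, by group and without covariates. SE was derived from the F statistic. A Benjamini-Hochberg adjusted p under 0.05 over 15440 genes was the threshold. The 9 comparisons were each pair of groups, the averaged duplicated and deleted chromosomes, and their interaction. The fit was tested on simulated data. Alternatives were DESeq2 1.42.0 and its size factors, library size alone, no filter, only the groups compared, the other reading of wt replicate 5, terms or subsets for the multi-mapped share, *Ttr* as a covariate, a replicate block, and leaving out each library.

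The flanking genes and gene lists were chosen with earlier results of these data known. Named are all flanking genes, *Sult1a1*, up to 3 genes called against wt or in an averaged comparison per other list, called genes among the nearest 25 on each side, and the 3 genes most like each called flanking gene; *Apobr* was named for its overlap. Lists were described by counts, medians or summed CPM, with no set test. Gene order, promoters and synonyms are from RefSeq GRCr8, a different assembly than that of the files, and levels were not compared between genes for want of lengths.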

Additional observations from a re-analysis of the deposited data

Results flagged for a closer look

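*Sh2b1* in Del/Dup replicate 2 stood at 48.6 CPM, while the other 3 Del/Dup libraries lay between 54.1 and 54.5 CPM. Its gap to the nearest of them was 0.929 of the range of the group, above Dixon's critical value for 4 samples. It was the 1 flag among 36 groups examined (9 genes in 4 groups), where chance flags about 1 in 20.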

How the results depend on the processing

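The counts below are of flanking genes that passed of 9 tested. Among genes given an adjusted p, DESeq2 called 6.94% in Del/+ against wt and 1.1% in Del/Dup against wt. It called 1.56% in Del/+ against Dup/+ and 6.67% with the averaged deleted chromosome. By edgeR these shares were 0.771%, 0.0907%, 0.784% and 2.2% of all tested genes. The term for the multi-mapped share rests on Del/+ replicate 4, the 1 deletion carrier with a low share. In Del/+ against wt the count went from 0 to 2 with DESeq2. In Dup/+ against wt it went from 1 to 0 with wt replicate 5 counted as Dup/+, and was 0 to 1 on leaving out a library. In Del/Dup against wt it went from 1 to 2 with DESeq2 and to 0 with only the groups compared, with the term for a high multi-mapped share and with *Ttr* as a covariate, and was 0 to 2 on leaving out a library. In Del/+ against Dup/+ it went from 1 to 2 with DESeq2 and to 0 with library size alone, no filter, only the groups compared, wt replicate 5 as Dup/+, the share term and *Ttr*, and was 0 to 2 on leaving out a library. In Del/Dup against Dup/+ it went from 2 to 1 with library size alone, wt replicate 5 as Dup/+ and *Ttr*, to 0 with the share term, and was 1 to 2 on leaving out a library. For the averaged duplicated chromosome it went from 1 to 0 with wt replicate 5 as Dup/+. For the averaged deleted chromosome it went from 1 to 2 with DESeq2 and to 0 with the share term, and was 1 to 2 on leaving out a library. The cause was not tested, other than the fewer samples of the reduced fits. No called value changed sign.

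With a replicate block, the count in Del/Dup against wt went from 1 to 0, where *Eif3c* had -0.26 (adjusted p = 0.0579), and no other of the 9 counts changed by over 1.5 times. Libraries that share a number were not treated as paired in the main fit: over 24 such pairs the deviations correlated at -0.17 to 0.12, and 0 of 19 libraries correlated best with its own number. Such a check cannot exclude that they shared a litter or a batch.

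Intervals and spreads rest on 4 to 6 libraries a group, and *Nfatc2ip*, at 60 to 176 reads per library, was measured least precisely of the 9 genes.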

Other observations

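*Slc5a2*, a glucose transporter gene whose level followed that of *Sgf29* over the 19 libraries, lies on the other side of the interval, as number 41 of the tested genes outward on the *Spn* side. It was picked for this likeness, which includes the group differences, so its fall in Dup/+ is not a result independent of *Sgf29*. It fell by 1.48 in Dup/+ against wt (SE 0.210, edgeR adjusted p = 0.000703) and by 0.86 with the averaged duplicated chromosome (SE 0.158, adjusted p = 0.0135), and had -0.79 in Del/Dup against wt (adjusted p = 0.138), -0.56 in Del/+ (adjusted p = 0.139) and 0.07 with the averaged deleted chromosome (adjusted p = 0.885). Within the average, Del/Dup minus Del/+ was -0.23 (SE 0.235, adjusted p = 0.898), so that most of the averaged value came from Dup/+ against wt, and the interaction was 1.26 (SE 0.319, adjusted p = 0.222).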
